A study of Mus musculus with 64 samples.

Results

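The growth arrest and early response genes described here are Cdkn1a, Gadd45a, Gadd45b, Gadd45g, Btg1, Btg2, Ier2 and Ier5, 8 of the 46686 genes quantified in the brains of mice given a psychotropic drug. Members were taken by gene symbol, which gave 17 isoforms of the 112714 in the tables, and the values of the isoforms of each gene were added up in each library. Abundance is given as FPKM (Cufflinks fragment counts scaled to transcript length and to the mapped fragments of the library), a value per transcript length, so that levels of different genes can be set side by side. RNA came from the nucleus accumbens (NAc), a part of the ventral striatum, and from the prefrontal cortex (PFCx) of adult male C57BL/6N mice aged 8 to 10 weeks, 2 h after a single intraperitoneal injection. Each drug had 4 libraries per tissue and saline had 8, which makes 64 libraries in all. The drugs were haloperidol (1 mg/kg) and risperidone (0.5 mg/kg), both antipsychotics, the psychostimulant methamphetamine (2 mg/kg), the antidepressants mianserin (20 mg/kg) and venlafaxine (16 mg/kg), and ketamine (20 mg/kg), a blocker of NMDA receptors. All drugs were given in saline, to which a drop of HCl was added for haloperidol and risperidone, and the saline controls are not stated to have received it. Each drug was given at 1 dose and 1 time, so that differences between drugs hold for these doses only. The labels do not say whether the replicates are separate animals, and p-values then measure the spread between these libraries, which may in part be technical.

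Cdkn1a encodes p21, which binds cyclin-dependent kinases and stops the cell cycle, and it is the best known target of the tumour suppressor p53. The Gadd45 proteins are small acidic proteins that bind p21, the sliding clamp PCNA and the stress kinase MAP3K4, and Gadd45b is known in neurons as an activity-induced gene linked to DNA demethylation. Btg1 and Btg2 belong to the BTG/TOB family, whose members restrain cell division and recruit the CCR4-NOT complex that removes poly(A) tails from mRNA. Ier2 and Ier5 are early response genes, transcribed quickly after growth factors or neuronal activity. In the adult brain most neurons have left the cell cycle for good, and these genes are known there mainly as genes that respond to stress, hormones and synaptic activity.

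Estimated depth was 1.52 to 3.26 gigabases per library (median 2.39), no library was identical to another, and none of the 512 values of the members was 0 (lowest 0.150 FPKM). The labels divide saline into set I and set II, and the number of isoforms above 0 in the NAc divides the drugs the same way. Saline I, haloperidol, risperidone and methamphetamine had 85287 to 87827 such isoforms, and saline II, mianserin, venlafaxine and ketamine had 107099 to 110556. In the PFCx the range was 108556 to 110852 with no such gap, and the same division was used. Each drug was therefore compared with all 8 saline libraries and also with the 4 of its own sample set, called the own-set comparison below. With 4 controls in place of 8, the own-set standard errors of the members were larger. A call can thus be lost there without a smaller difference. Striatal neuron markers (6 genes, summed) were at 232 to 411 FPKM in the NAc and 15.3 to 52.6 in the PFCx, and cortical projection neuron markers (5 genes) at 20.4 to 78.6 and 145 to 211, as the tissue labels say. In bulk tissue, fewer cells of a type and less RNA per cell cannot be told apart.

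Of the 96 differences between a drug and saline (8 genes, 6 drugs and 2 tissues), 20 passed the test and all 20 were higher after the drug, 10 in each tissue. Over all genes tested, 0.531% of the gene by drug differences of the NAc and 0.175% of those of the PFCx were called higher, and 0.284% and 0.114% lower. The members were chosen with earlier results of these data known, so that counts and shares are not an independent comparison. In the own-set comparison 8 of the 96 passed, 5 for the NAc and 3 for the PFCx and again all higher, beside 0.19% and 0.185% of all genes by drug called higher and 0.154% and 0.588% lower. All 4 drug libraries lay above all 8 saline libraries in 11 of 48 NAc differences and 10 of 48 PFCx differences. They lay below them in 1, that of Ier5 after mianserin in the NAc. How often such a separation occurs over all genes was not counted, so these counts of separated groups have no share beside them. Rescaling each library to the same 75th percentile of values above 0 kept 10 of the 20 calls, and the 10 not kept were 9 in the NAc, all except Cdkn1a after mianserin, and Gadd45b after haloperidol in the PFCx. That rescaling moved the median of all genes in the NAc by -0.21 to -0.20 for the drugs of set I. Rescaling over genes with a mean of at least 1 FPKM moved it by -0.03 to 0.04 and kept 19.

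The test across all 6 drugs (limma moderated F, Benjamini-Hochberg adjustment over all genes) called the same 6 members in both tissues, which are Cdkn1a, Gadd45b, Gadd45g, Btg2, Ier2 and Ier5. In the NAc 29.9% of all genes were called, and in the PFCx 3.37%. The Ier2 call was lost in the NAc without venlafaxine replicate 3 (adjusted p = 0.0529 by limma). In the PFCx it was lost without methamphetamine replicate 1 or 2, mianserin replicate 3 or venlafaxine replicate 3 or 4 (highest adjusted p = 0.0865). In the own-set comparison the members called were Cdkn1a, Gadd45g and Btg2 in the NAc (1.96% of all genes) and Cdkn1a, Gadd45b, Btg2 and Ier5 in the PFCx (1.46%). With the replicate number as a block within the set, Gadd45g and Ier2 also had a drug effect in the PFCx (adjusted p = 0.0355 and 0.0349 by limma, beside 0.0921 and 0.130 without the block). Gadd45a and Btg1 were called in neither tissue, with NAc adjusted p = 0.341 and 0.180 and PFCx adjusted p = 0.166 and 0.858. With methamphetamine replicate 3 of the NAc left out, Btg1 was called there (adjusted p = 0.0201 by limma). With methamphetamine replicate 3 of the PFCx left out, Gadd45a was called there (adjusted p = 0.0307 by limma).

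**Figure D1:**
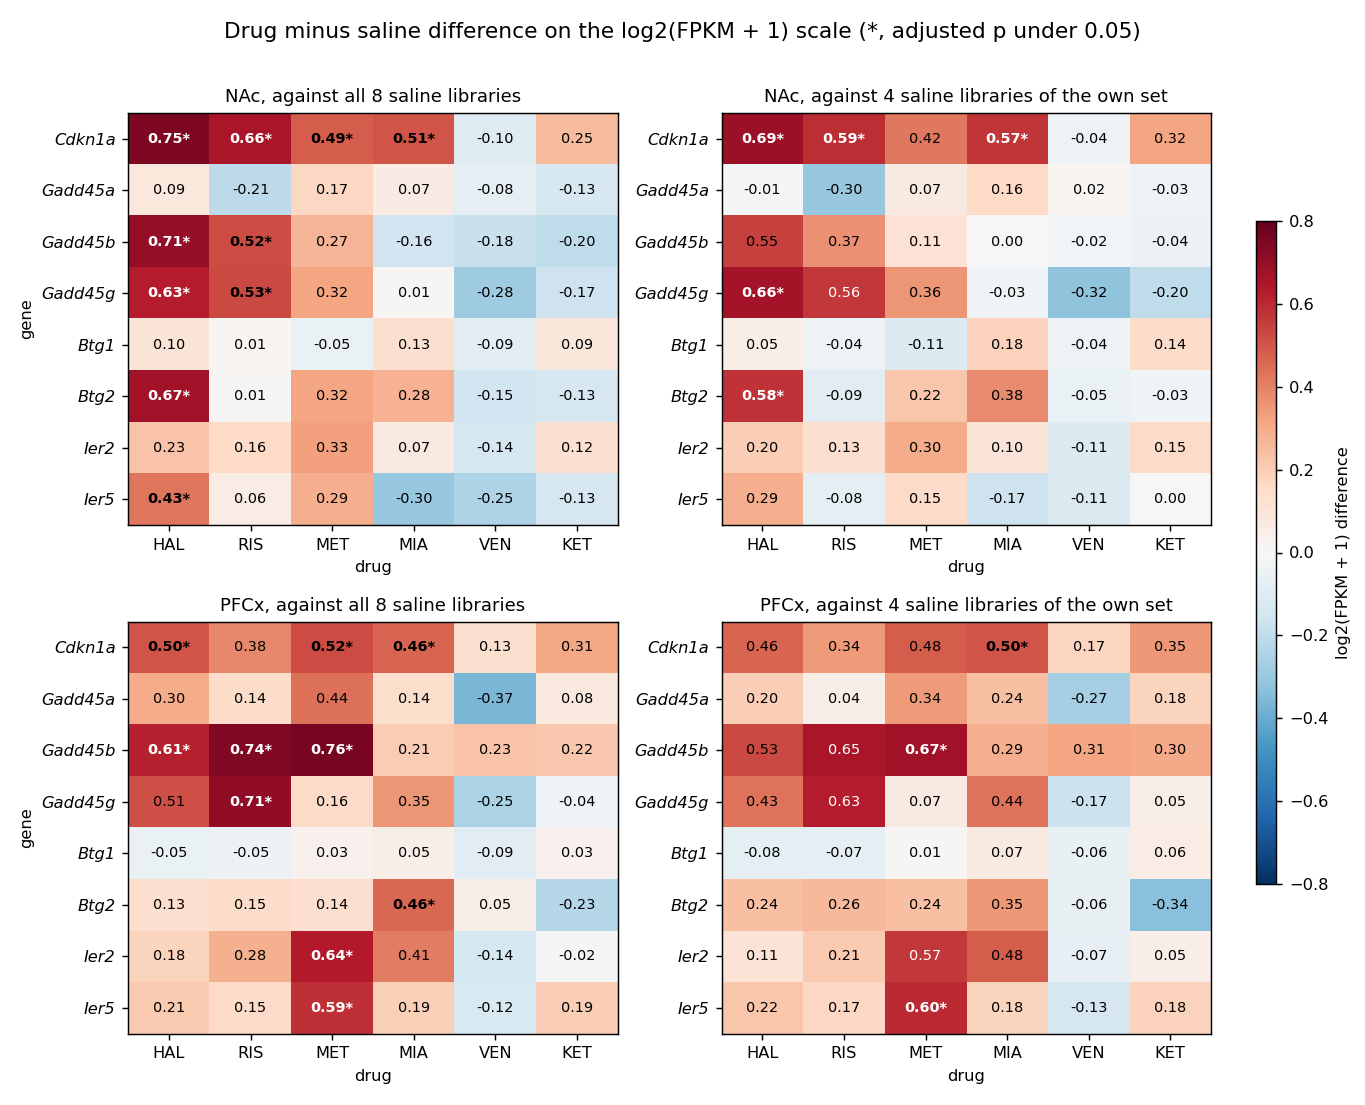
Difference between each drug and saline on the log2(FPKM + 1) scale for the 8 genes (y axis) and 6 drugs (x axis) in both tissues, against all 8 saline libraries (left) and the 4 of the same sample set (right), as coloured cells with asterisks on called differences. The values for haloperidol in the NAc lie highest for Cdkn1a (0.75), Gadd45b (0.71), Btg2 (0.67) and Gadd45g (0.63), while venlafaxine has no called difference in either tissue.

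The plot of differences shows where the calls lie. Haloperidol accounted for 5 of the 10 in the NAc (Cdkn1a, Gadd45b, Gadd45g, Btg2 and Ier5; 0.677% of all genes were called higher), risperidone for 3 (Cdkn1a, Gadd45b and Gadd45g; 0.578%), and methamphetamine (0.215%) and mianserin (0.793%) for 1 each, both Cdkn1a. In the PFCx methamphetamine accounted for 4 (Cdkn1a, Gadd45b, Ier2 and Ier5; 0.272%), and haloperidol (Cdkn1a and Gadd45b; 0.125%), risperidone (Gadd45b and Gadd45g; 0.285%) and mianserin (Cdkn1a and Btg2; 0.35%) for 2 each. Venlafaxine and ketamine had 0 in either tissue by limma, where NAc shares of all genes called higher were 0.0479% and 0.872% and PFCx shares 0.00272% and 0.0136%. At an unadjusted p under 0.05, venlafaxine had 2 of the 8 members in the NAc and 1 in the PFCx, ketamine had 1 and 2, and an ordinary test in place of limma also called 0. The median difference over the 8 members was 0.53 (log2) after haloperidol in the NAc and 0.48 after methamphetamine in the PFCx, beside -0.03 and -0.01 over all genes tested. After venlafaxine it was -0.15 in the NAc. In the own-set comparison the calls of the NAc were 3 for haloperidol (Cdkn1a, Gadd45g and Btg2; 0.256% of all genes called higher), 1 for risperidone (Cdkn1a; 0.229%) and 1 for mianserin (Cdkn1a; 0.185%). Those of the PFCx were 2 for methamphetamine (Gadd45b and Ier5; 0.136%) and 1 for mianserin (Cdkn1a; 0.541%).

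**Figure D2:**
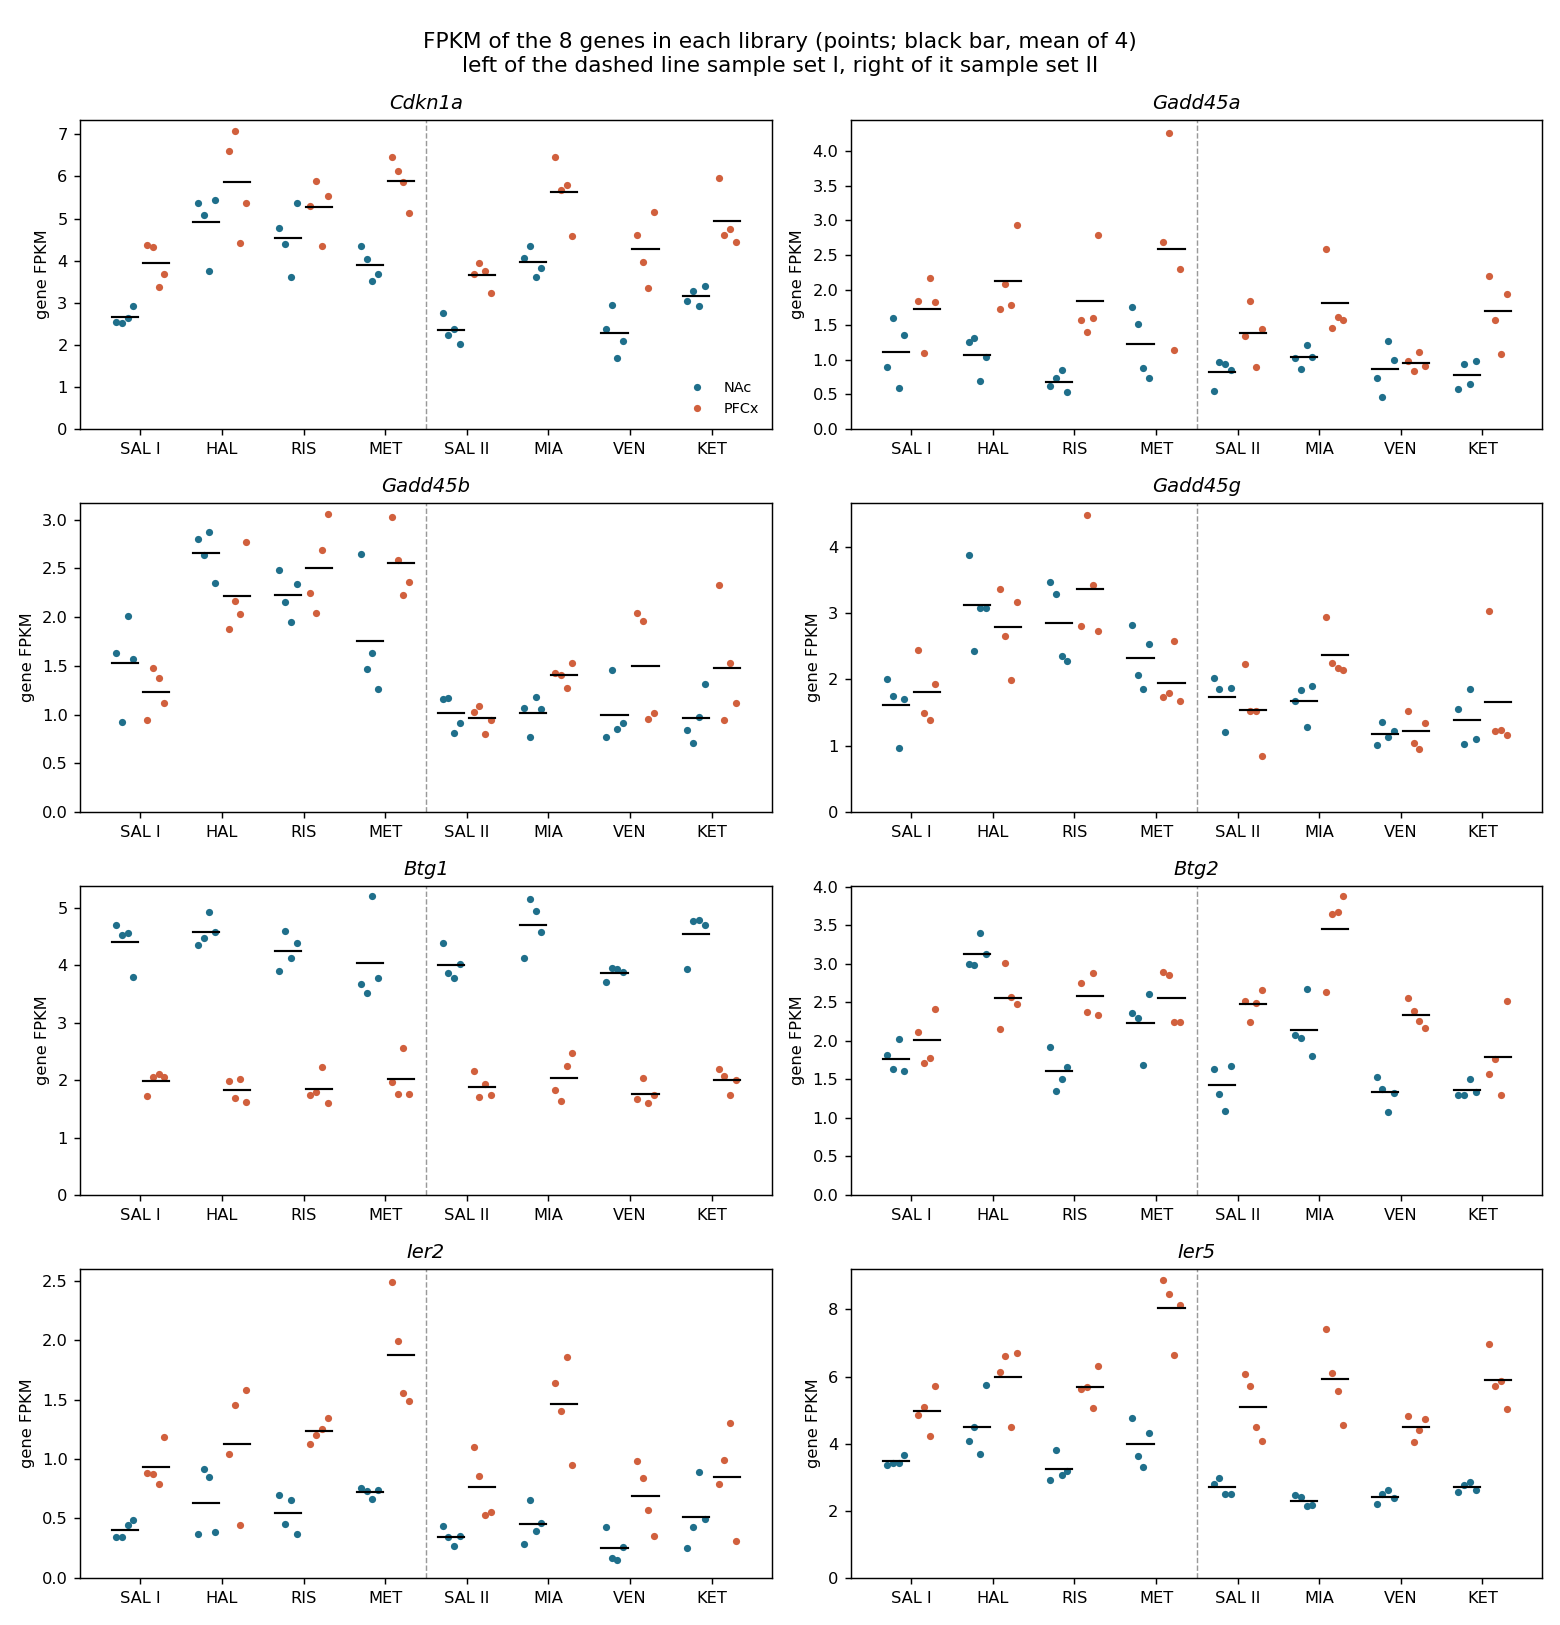
FPKM of each gene (y axis, linear) in every library of the NAc and PFCx, by drug, with the mean of each group of 4 as a black bar and the 2 sample sets on either side of the dashed line. For Cdkn1a in the NAc the haloperidol libraries (3.77 to 5.44) lie above all saline libraries (2.01 to 2.92), while the Btg1 points of all groups in a tissue lie at similar heights.

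The plot of values by library shows the 64 libraries behind each of these differences. It also shows that saline set I lay above set II for Ier5 in the NAc, by 0.27 on the log2 scale (SE 0.09, adjusted p = 0.0353 by limma), which was the only member called between the saline sets. Of all genes, 17.1% were called between the sets in the NAc and 9.26% in the PFCx.

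Cdkn1a lies on chromosome 17 and had 3 isoforms in the tables. RefSeq places promoters at 2 of its starts (GRCm38.p6, plus strand), and the 250 bases before each are shown because one start carried most of the FPKM of the gene and the other almost none. The upstream one, at chr17:29090729-29090978, precedes the start of ENSMUST00000119901. The downstream one, at chr17:29093519-29093768, ends just before the first base of ENSMUST00000023829, which carried 84.3% of the NAc and 83.7% of the PFCx level of the gene. Capitals mark half-sites of the p53 motif.
Cdkn1a upstream promoter: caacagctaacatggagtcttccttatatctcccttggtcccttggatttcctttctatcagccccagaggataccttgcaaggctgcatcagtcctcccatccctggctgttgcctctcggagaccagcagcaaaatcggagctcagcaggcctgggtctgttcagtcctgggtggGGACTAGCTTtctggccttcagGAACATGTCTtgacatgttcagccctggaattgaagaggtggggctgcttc
Cdkn1a downstream promoter: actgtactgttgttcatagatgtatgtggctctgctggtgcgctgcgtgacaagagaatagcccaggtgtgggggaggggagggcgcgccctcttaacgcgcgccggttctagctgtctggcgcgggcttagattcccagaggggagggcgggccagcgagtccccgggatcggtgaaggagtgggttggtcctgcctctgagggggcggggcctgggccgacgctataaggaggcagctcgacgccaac
The upstream sequence held 2 p53 half-sites, 73 to 64 and 51 to 42 bases before the start. The half-site was found in 7.13% of the 32851 RefSeq mouse promoters of this length. The downstream sequence held none of it, and of the 8 motifs searched it held only the GC box (GGGCGG), in 2 copies, a motif present in 32.7% of all promoters. A match describes letters in the window and says nothing about a factor.

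The NAc saline libraries held 2.01, 2.53 and 2.92 FPKM of Cdkn1a (lowest, median and highest of 8). After haloperidol the 4 libraries were at 5.37, 5.08, 3.77 and 5.44 FPKM. After risperidone they were at 4.79, 4.39, 3.61 and 5.36. All 8 of these libraries lay above every saline library. Cdkn1a rose 1.96-fold after haloperidol, from 2.50 ± 0.287 (SD, n = 8) to 4.91 ± 0.78 FPKM (SD, n = 4), a difference of 0.75 ± 0.09 (SE) on the log2(FPKM + 1) scale with an adjusted p of 1.16e-05 (limma). The own-set difference was 0.69 with an adjusted p of 0.000662. After risperidone the level rose 1.81-fold to 4.54 ± 0.736 FPKM (log2 0.66, adjusted p = 0.000166 by limma, own-set 0.59 and 0.00656).

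Mianserin libraries held 4.07, 4.35, 3.62 and 3.82 FPKM of Cdkn1a in the NAc, and methamphetamine libraries 4.34, 4.05, 3.52 and 3.68. These 2 groups overlapped each other and again lay wholly above saline. Cdkn1a rose 1.58-fold after mianserin (log2 0.51, adjusted p = 0.00391 by limma, own-set 0.57 and 0.00748) and 1.56-fold after methamphetamine (log2 0.49, adjusted p = 0.0136). For methamphetamine the own-set adjusted p was 0.169 (log2 0.42), and without replicate 1 or replicate 2 of the drug group the call was lost (highest adjusted p = 0.0920). Ketamine libraries held 3.03, 3.29, 2.92 and 3.40 FPKM, all 4 above all 8 saline libraries, but the difference of 0.25 did not pass (adjusted p = 0.140). Venlafaxine libraries held 2.37, 2.94, 1.70 and 2.10 FPKM and overlapped saline (log2 -0.10, adjusted p = 0.579).

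Other cell markers moved in part with these groups in the NAc. The summed endothelial markers (5 genes) were at 16.1 to 16.7 FPKM after haloperidol and 13.6 to 16.4 after risperidone. Both lay below the 17.9 to 20.9 of saline, and 1 of the 5 was called lower after risperidone (0 in the own-set comparison). Cortical projection neuron markers summed to 58.3 to 78.6 FPKM after haloperidol, 47.9 to 65.8 in saline set I and 20.4 to 42.6 in saline set II, and none of the 5 was called after haloperidol. In the PFCx, 1 of the 5 was called higher after mianserin (1 in the own-set comparison), beside 0.35% of all genes (own-set 0.541%). The sums were 163 to 205 after mianserin, beside 153 to 198 in saline. Of the 4 neuron markers 3 are in the tables, and their sum was 536 to 563 FPKM after mianserin in the PFCx, wholly above the 8 saline libraries at 483 to 525, though none of the 3 was called for that drug by limma. Red blood cell markers (5 genes) of the NAc summed to 28.4 to 40.9 FPKM after mianserin and 40.2 to 102 in saline. Of these 1 was called lower (0 in the own-set comparison). After ketamine in the NAc, 2 of 5 oligodendrocyte markers were called higher (3 in the own-set comparison), beside 0.872% of all genes against all saline. Their sums were 658 to 723 FPKM, beside 512 to 575 in saline set II and 617 to 703 in set I. Of the 6 striatal neuron markers, 1 was called lower after ketamine in the NAc (0 in the own-set comparison). Over the 6 drugs, 0.284% of all NAc gene by drug differences were called lower (own-set 0.154%). Shares called lower for a single drug are not given here. The part of these markers in the levels of the members was not tested.

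In the PFCx, saline libraries held 3.24, 3.72 and 4.37 FPKM of Cdkn1a (lowest, median and highest of 8). The methamphetamine libraries were at 6.47, 6.12, 5.86 and 5.13 FPKM and the mianserin libraries at 6.45, 5.68, 5.79 and 4.59, all above the saline range. Haloperidol libraries were at 6.59, 7.07, 4.42 and 5.36, also above saline, the lowest of them close to the highest saline library. Cdkn1a rose 1.55-fold after methamphetamine, from 3.80 ± 0.407 (SD, n = 8) to 5.89 ± 0.569 FPKM (SD, n = 4; log2 0.52, adjusted p = 0.0128 by limma). It rose 1.48-fold after mianserin (log2 0.46, adjusted p = 0.0245, own-set 0.50 and 0.0219). After haloperidol the difference of 0.50 passed with an adjusted p of 0.0350.

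The own-set adjusted p was 0.146 for methamphetamine, or 0.0412 with the replicate number as a block, and 0.322 for haloperidol. Calls in the PFCx were also lost when one library was left out. The highest adjusted p was 0.0876 for methamphetamine (without drug replicate 1, 2 or 3), 0.144 for mianserin (without drug replicate 1, 2 or 3) and 0.184 for haloperidol (without drug replicate 1, 2 or 4, or any library of saline II). Risperidone libraries held 5.30, 5.89, 4.34 and 5.54 FPKM of Cdkn1a and did not pass (log2 0.38, adjusted p = 0.0873), although they did with a replicate block over all groups (adjusted p = 0.0323). Ketamine libraries held 5.97, 4.62, 4.75 and 4.45 FPKM, all 4 above all 8 saline libraries. The ketamine difference of 0.31 did not pass (adjusted p = 0.464 by limma, own-set 0.35 and 0.161). Venlafaxine libraries overlapped saline (log2 0.13, adjusted p = 0.846).

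By isoform, the test across the 6 drugs called 6 of the members' isoforms in the NAc, where 7.69% of all isoforms were called, and 5 in the PFCx, where 1.14% were. In the own-set comparison 2 were called in each tissue, the main Cdkn1a isoform and the single Btg2 isoform, beside 0.671% and 0.49%. ENSMUST00000023829, the main Cdkn1a isoform with 3 exons at chr17:29093772-29100722, had an adjusted p over the 6 drugs of 4.14e-05 for the NAc and 0.00385 for the PFCx by limma (own-set 0.00017 and 0.00586). Its level in the NAc was 2.16 ± 0.325 FPKM in saline (SD, n = 8) and 3.77 ± 0.489 after haloperidol (SD, n = 4). In the PFCx it rose from 3.16 ± 0.344 to 4.91 ± 0.625 FPKM after mianserin and to 4.90 ± 0.599 after methamphetamine (adjusted p = 0.00369 and 0.00862 by limma).

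ENSMUST00000122348, at chr17:29098207-29099569, carried 15.2% of the NAc level and 14.4% of the PFCx level. In the NAc its adjusted p over the 6 drugs was 0.0181 by limma (own-set 0.328), with 0.302 ± 0.196 FPKM in saline and 1.14 ± 0.656 after haloperidol, and for the PFCx it was 0.683. ENSMUST00000119901, the isoform that starts at the upstream promoter (chr17:29090979-29099527), made up 0.471% and 1.93% of the gene. It reached 0.1 FPKM in 1 of 32 NAc libraries and 11 of 32 PFCx libraries and was too low to be tested. The main isoform, ENSMUST00000023829, starts within the span of AC167363.2 (chr17:29093416-29094461), an annotated gene on the other strand. No level of AC167363.2 is given here.

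**Figure D3:**
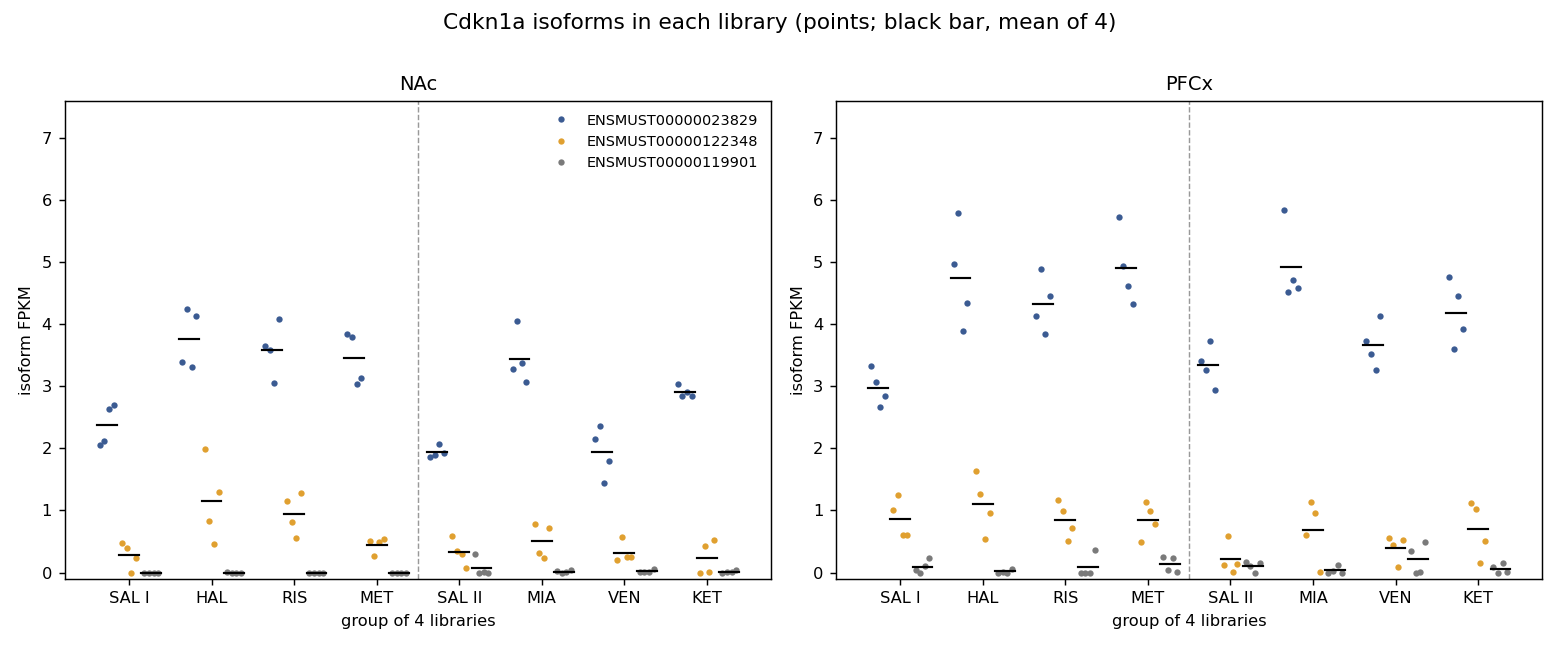
FPKM of the 3 Cdkn1a isoforms (y axis, linear) in every library by drug and tissue. The points of ENSMUST00000023829 lie highest in all groups (84.3% of the NAc and 83.7% of the PFCx level of the gene), and those of ENSMUST00000119901, which starts upstream, lie near 0.

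The isoform plot shows that the isoform of the downstream promoter held the higher drug levels in both tissues, and that ENSMUST00000122348 was spread from near 0 to 1.98 FPKM in the NAc. Cufflinks divides reads shared by overlapping isoforms between them, so that errors of one isoform can pass to another.

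Gadd45b and Gadd45g are short genes with 1 and 2 isoforms in the tables, on chromosomes 10 and 13. The 250 bases before each start are shown (RefSeq, GRCm38.p6, plus strand, chr10:80929841-80930090 and chr13:51846425-51846674), because these are the 2 family members with called differences. Capitals mark the TATA box.
Gadd45b promoter: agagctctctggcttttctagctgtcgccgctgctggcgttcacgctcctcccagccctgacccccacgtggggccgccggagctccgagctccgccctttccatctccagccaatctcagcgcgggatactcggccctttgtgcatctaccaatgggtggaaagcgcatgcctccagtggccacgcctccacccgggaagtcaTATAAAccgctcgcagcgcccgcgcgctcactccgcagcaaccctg
Gadd45g promoter: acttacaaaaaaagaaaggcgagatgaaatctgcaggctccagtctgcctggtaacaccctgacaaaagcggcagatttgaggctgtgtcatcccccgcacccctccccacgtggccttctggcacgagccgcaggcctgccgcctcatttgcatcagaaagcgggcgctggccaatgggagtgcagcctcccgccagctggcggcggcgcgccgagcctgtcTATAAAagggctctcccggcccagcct
The TATA box (TATAAA) lay 46 to 41 bases before the start of Gadd45b and 27 to 22 before that of Gadd45g, and 12.4% of all promoters held it. The Gadd45a promoter held no TATAAA and had a p53 half-site 40 to 31 bases before the start. No cAMP response element (CRE, TGACGTCA, in 1.55% of promoters), AP-1 site (TGANTCA, 6.75%), EGR site (GCGTGGGCG, 0.536%) or CArG box (1.47%) was found in the windows of the 3 family members, on either strand.

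Gadd45b, the member linked to activity in neurons, was at 0.815, 1.17 and 2.01 FPKM in NAc saline (lowest, median and highest of 8). Haloperidol libraries were at 2.80, 2.63, 2.87 and 2.35 FPKM, and risperidone libraries at 2.49, 2.15, 1.95 and 2.34. The haloperidol group lay above all saline libraries, and 3 of the 4 risperidone libraries did. Gadd45b rose 2.09-fold after haloperidol, from 1.27 ± 0.422 (SD, n = 8) to 2.66 ± 0.233 FPKM (SD, n = 4; log2 0.71 ± 0.12 SE, adjusted p = 0.00211 by limma). After risperidone it rose to 2.23 ± 0.233 FPKM (log2 0.52, adjusted p = 0.0350). Saline set I stood at 1.53 ± 0.452 and set II at 1.02 ± 0.179, and in the own-set comparison neither drug passed (log2 0.55 and 0.37, adjusted p = 0.0833 and 0.409). For risperidone the call was also lost without any of its 4 libraries or any of the 4 of saline II (highest adjusted p = 0.119). Methamphetamine libraries held 2.65, 1.47, 1.63 and 1.27 FPKM (adjusted p = 0.345). Values after mianserin, venlafaxine and ketamine were -0.16, -0.18 and -0.20 (log2, adjusted p 0.379 to 0.527).

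The PFCx had 0.806, 1.06 and 1.48 FPKM of Gadd45b in saline. Methamphetamine libraries were at 3.03, 2.59, 2.23 and 2.36 FPKM, risperidone libraries at 2.25, 2.04, 2.68 and 3.06, and haloperidol libraries at 1.88, 2.17, 2.03 and 2.77. All 12 lay above the whole saline range. The level rose 2.33-fold after methamphetamine, from 1.10 ± 0.227 (SD, n = 8) to 2.55 ± 0.35 FPKM (SD, n = 4; log2 0.76, adjusted p = 0.00230 by limma, own-set 0.67 and 0.0477). The ratio was 2.28 after risperidone (log2 0.74, adjusted p = 0.00276 by limma, own-set 0.65 and 0.0618). After haloperidol the level was 2.21 ± 0.391 FPKM (log2 0.61, adjusted p = 0.0382, own-set 0.53 and 0.410). The call was lost without any of the 4 haloperidol libraries, any of saline II or saline I replicate 1 (highest adjusted p = 0.181). Mianserin libraries held 1.43, 1.41, 1.27 and 1.53 FPKM, above their own saline set but overlapping the 8 (log2 0.21, adjusted p = 0.65).

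Gadd45g is a relative of Gadd45b that binds the same kinase. Its NAc saline libraries held 0.971, 1.80 and 2.02 FPKM (lowest, median and highest of 8). After haloperidol the values were 3.87, 2.43, 3.08 and 3.07 FPKM, and after risperidone 3.47, 3.28, 2.35 and 2.28. Both groups lay above all saline libraries. Gadd45g rose 1.86-fold after haloperidol, from 1.67 ± 0.383 (SD, n = 8) to 3.11 ± 0.59 FPKM (SD, n = 4; log2 0.63 ± 0.12 SE, adjusted p = 0.00582 by limma, own-set 0.66 and 0.0274). The adjusted p was 0.0511 without haloperidol replicate 1. After risperidone the ratio was 1.70 (log2 0.53, adjusted p = 0.0278). The own-set difference was 0.56, with an SE of 0.14 beside 0.12 against all saline and an adjusted p of 0.0898 (limma). The call was lost without risperidone replicate 1 or 2 or saline II replicate 3 (highest adjusted p = 0.127). Methamphetamine gave 2.82, 2.06, 1.85 and 2.54 FPKM (log2 0.32, adjusted p = 0.296), and venlafaxine a value of -0.28 (adjusted p = 0.199).

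For Gadd45g in the PFCx, saline libraries held 0.849, 1.52 and 2.44 FPKM, and risperidone libraries 2.80, 4.48, 3.42 and 2.73. The 4 lay above all 8 saline libraries. The ratio was 2.01 (log2 0.71 ± 0.16 SE, adjusted p = 0.0297 by limma). The own-set difference was 0.63 with an adjusted p of 0.279 (limma). Without risperidone replicate 1, 2 or 3 or saline II replicate 2, 3 or 4 the call was lost (highest adjusted p = 0.166). Haloperidol libraries held 3.37, 2.66, 1.99 and 3.17 FPKM, overlapping saline (log2 0.51, adjusted p = 0.148). Of the 2 isoforms, ENSMUST00000021903 carried 94.4% of the NAc and 93.9% of the PFCx level.

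Gadd45a, the family member known as a p53 target, had no called difference. In NAc saline it stood at 0.967 ± 0.354 FPKM (SD, n = 8) and the 6 differences ran from -0.21 to 0.17 on the log2 scale. In the PFCx saline stood at 1.56 ± 0.435 FPKM and the differences ran from -0.37 after venlafaxine to 0.44 after methamphetamine. The methamphetamine libraries were spread from 1.13 to 4.25 FPKM, wider than the venlafaxine libraries at 0.832 to 1.11. Its FPKM was divided between 7 isoforms, of which ENSMUST00000043098 carried 36.9% of the NAc and 50.0% of the PFCx level, and none of those tested was called. Gadd45a overlaps the antisense gene E230016M11Rik, so that reads of the 2 cannot be told apart where the counting does not use strand.

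Btg2 and Btg1 are close relatives with 1 isoform each in the tables. Their promoters are shown (RefSeq, GRCm38.p6) because one gene had called differences and the other did not. The Btg2 window is chr1:134079156-134079405 on the minus strand and the Btg1 window chr10:96616751-96617000 on the plus strand. Capitals mark the CRE or its half-sites and the TATA box.
Btg2 promoter: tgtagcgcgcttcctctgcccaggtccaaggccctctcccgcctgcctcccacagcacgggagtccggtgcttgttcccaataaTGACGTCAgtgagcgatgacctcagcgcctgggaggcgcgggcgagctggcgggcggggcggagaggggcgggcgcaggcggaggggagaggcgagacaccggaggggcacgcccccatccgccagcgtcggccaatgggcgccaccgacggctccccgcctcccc
Btg1 promoter: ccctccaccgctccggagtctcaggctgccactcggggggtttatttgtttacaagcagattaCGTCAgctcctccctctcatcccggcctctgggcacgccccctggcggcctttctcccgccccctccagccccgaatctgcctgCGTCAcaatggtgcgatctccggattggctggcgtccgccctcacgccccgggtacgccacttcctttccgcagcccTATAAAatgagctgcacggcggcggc
The full CRE (TGACGTCA) lay 166 to 159 bases before the start of Btg2, the only full CRE among the 8 promoters of 7 members in the RefSeq table. Btg1 held 2 half-sites (TGACG, on the other strand; 17.8% of all promoters), 187 to 183 and 103 to 99 bases before the start, and a TATA box 26 to 21 bases before it. The GC content of the Btg2 window was 73.2% and that of Btg1 65.2%, beside a median of 52.4% over all promoters. Ier2 has no entry in that table.

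Btg2 in the NAc was at 1.09, 1.63 and 2.03 FPKM in saline (lowest, median and highest of 8) and at 3.00, 2.98, 3.40 and 3.12 after haloperidol. The 4 haloperidol libraries lay close together and above every library of the other groups. Btg2 rose 1.96-fold, from 1.60 ± 0.29 (SD, n = 8) to 3.13 ± 0.196 FPKM (SD, n = 4; log2 0.67 ± 0.09 SE, adjusted p = 2.52e-05 by limma, own-set 0.58 and 0.00145). Risperidone, the other antipsychotic, gave 0.01 (adjusted p = 0.96), at its own dose. Methamphetamine libraries held 2.36, 2.29, 1.68 and 2.61 FPKM (log2 0.32, adjusted p = 0.155), and mianserin libraries 2.07, 2.04, 2.68 and 1.80 (log2 0.28, adjusted p = 0.0976). Both groups overlapped saline.

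In the PFCx the pattern of Btg2 was another one. Saline libraries held 1.72, 2.33 and 2.66 FPKM, mianserin libraries 2.63, 3.64, 3.67 and 3.87. Of the 4, 3 lay above all saline libraries. Btg2 rose 1.54-fold after mianserin, from 2.24 ± 0.348 (SD, n = 8) to 3.46 ± 0.557 FPKM (SD, n = 4; log2 0.46 ± 0.10 SE, adjusted p = 0.0196 by limma). The own-set difference was 0.35 (adjusted p = 0.0976 by limma), where saline II stood at 2.48 ± 0.175. The call was lost without mianserin replicate 2, 3 or 4 (highest adjusted p = 0.0998). Haloperidol gave 0.13. Ketamine libraries held 1.57, 1.77, 1.29 and 2.51 FPKM (log2 -0.23, adjusted p = 0.571, own-set -0.34 and 0.124). The response of Btg2 to the 6 drugs itself differed between NAc and PFCx (limma interaction F, adjusted p = 0.00336), as that of 12.9% of all genes did. In the own-set comparison this difference did not pass (adjusted p = 0.0681 by limma, beside 0.752%), nor did any single drug (haloperidol 0.34 ± 0.14 SE, adjusted p = 0.957). Against all saline no single drug passed either, the lowest p being that of haloperidol at 0.54 ± 0.13 (SE, adjusted p = 0.124). For single drugs 0.0406% of all genes were called for haloperidol, 0.119% for mianserin, 0.0514% for venlafaxine, 0.311% for ketamine and 0% for the other two. At an unadjusted p under 0.05, 8 of the 48 member by drug differences between the tissues were found, and an ordinary test called 0.

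Btg1 was the most abundant member in NAc saline, at 4.21 ± 0.381 FPKM in saline (SD, n = 8), and at 1.94 ± 0.185 in the PFCx. Its NAc differences ran from -0.09 to 0.13 (log2) and its PFCx differences from -0.09 to 0.05, with standard errors of 0.07 and 0.08. The 6 drug groups overlapped saline in both tissues. Rescaling to the 75th percentile of values above 0, which moved the median of all genes by 0.19 to 0.24 for the drugs of set II, made Btg1 called higher in the NAc after mianserin (0.54), ketamine (0.45) and venlafaxine (0.34, where the unscaled value was -0.09).

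Ier5, whose protein binds the phosphatase PP2A and the heat shock factor HSF1, was the most abundant member in the PFCx. Its saline libraries held 4.07, 4.97 and 6.07 FPKM (lowest, median and highest of 8) and its methamphetamine libraries 8.88, 8.47, 6.64 and 8.14. The 4 lay above all 8 saline libraries. Ier5 rose 1.60-fold, from 5.03 ± 0.746 (SD, n = 8) to 8.03 ± 0.977 FPKM (SD, n = 4; log2 0.59 ± 0.11 SE, adjusted p = 0.00572 by limma, own-set 0.60 and 0.0429). The call was kept without any one library.

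In the NAc, Ier5 saline libraries held 2.50, 3.18 and 3.66 FPKM, haloperidol libraries 4.09, 4.50, 3.70 and 5.74, and mianserin libraries 2.47, 2.41, 2.14 and 2.16. Haloperidol lay above and mianserin below all 8 saline libraries. Ier5 rose 1.46-fold after haloperidol (log2 0.43 ± 0.09 SE, adjusted p = 0.0132 by limma). Saline set I, the set of haloperidol, stood at 3.47 ± 0.128 FPKM and set II at 2.70 ± 0.239. Against set I the ratio was 1.30 and the difference did not pass (log2 0.29, adjusted p = 0.314), and without haloperidol replicate 4 the adjusted p over all saline was 0.102. The mianserin value of -0.30 did not pass (adjusted p = 0.0808), and against set II it was -0.17 (adjusted p = 0.742). Methamphetamine libraries held 4.75, 3.63, 3.30 and 4.33 FPKM (log2 0.29, adjusted p = 0.204). The response of Ier5 to the drugs also differed between NAc and PFCx (limma interaction F, adjusted p = 0.0142) but not in the own-set comparison (adjusted p = 0.242). Of all genes 12.9% differed, and 0.752% in the own-set comparison. Against all saline the lowest p of a single drug was that of mianserin (-0.49 ± 0.14 SE, adjusted p = 0.104). The own-set value for mianserin was -0.35 ± 0.15 (SE, adjusted p = 0.475 by limma).

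Ier2, a nuclear early response gene with a single isoform, was the least abundant member. PFCx saline libraries held 0.529, 0.865 and 1.18 FPKM and methamphetamine libraries 2.49, 1.99, 1.55 and 1.49, all 4 above saline. Ier2 rose 2.22-fold, from 0.847 ± 0.23 (SD, n = 8) to 1.88 ± 0.463 FPKM (SD, n = 4; log2 0.64 ± 0.15 SE, adjusted p = 0.0495 by limma). The own-set difference was 0.57 with an adjusted p of 0.350 (limma). The call was lost in 25 of the 32 fits that left out one library (highest adjusted p = 0.289). In the NAc, saline libraries held 0.267, 0.350 and 0.489 FPKM and methamphetamine libraries 0.756, 0.735, 0.664 and 0.744. The 4 lay close together and above all saline libraries, but on the log2(FPKM + 1) scale the difference was 0.33 ± 0.10 and did not pass (adjusted p = 0.186). Mianserin in the PFCx gave 1.64, 1.41, 1.86 and 0.946 FPKM (log2 0.41, adjusted p = 0.3).

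**Figure D4:**
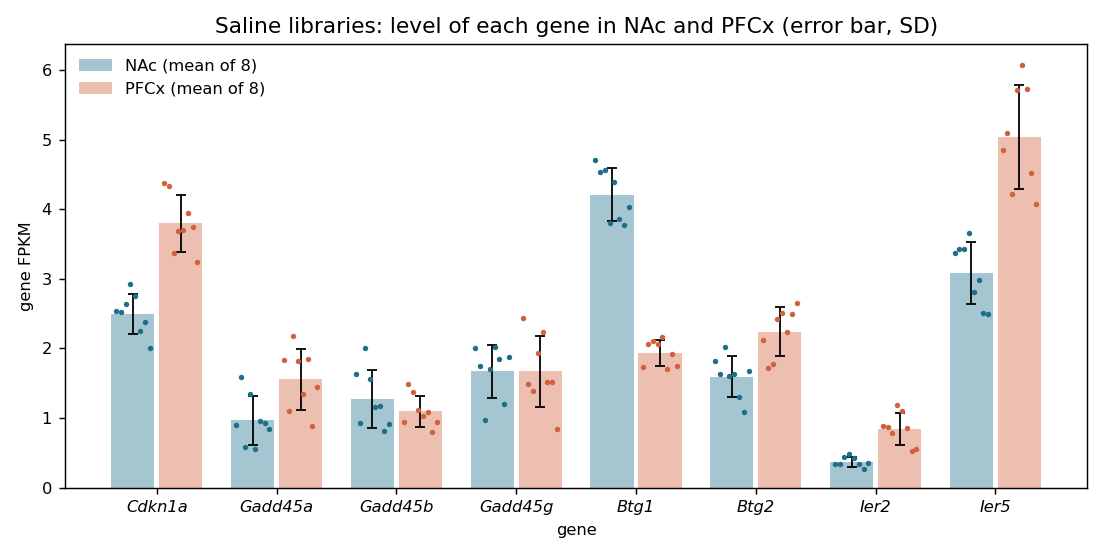
FPKM (y axis, linear) of the 8 genes (x axis) in the 8 saline libraries of each tissue, as points, with bars for the mean and error bars for the SD. Btg1 is higher in the NAc (4.21 on average) than in the PFCx (1.94), while Ier5 and Cdkn1a are higher in the PFCx (5.03 and 3.80) than in the NAc (3.09 and 2.50).

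The plot of saline levels compares the tissues without a drug. Of the 8 members, 6 differed in level between the NAc and the PFCx. With saline set I alone 4 differed, and with saline set II alone 4. Shares of all genes for a single saline set are not given here. Btg1 was 2.17-fold higher in the NAc (log2 0.83 ± 0.06 SE, adjusted p = 2.86e-17 by limma), and 8.59% of all genes were called higher there. The 5 others were higher in the PFCx, as 37.1% of all genes were: Ier2 2.24-fold (adjusted p = 0.000873), Ier5 1.63-fold (8.97e-08), Gadd45a 1.61-fold (0.0140), Cdkn1a 1.52-fold (6.86e-06) and Btg2 1.40-fold (0.000532). Gadd45b and Gadd45g were not called (adjusted p = 0.428 and 0.954).

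Within a tissue, the mean levels could be put in order over the 6 drugs and saline. For Cdkn1a in the NAc the order was haloperidol, risperidone, mianserin, methamphetamine, ketamine, saline and venlafaxine. Neighbours in it were separated without overlap only between methamphetamine (sample set I) and ketamine (sample set II) and between ketamine and saline. For Btg2 in the NAc the order began with haloperidol, methamphetamine and mianserin, and haloperidol was separated from methamphetamine. Every other pair of neighbours overlapped, for all 8 genes in both tissues. Haloperidol stood first in the NAc for Cdkn1a, Gadd45b, Gadd45g, Btg2 and Ier5, and methamphetamine for Ier2. In the PFCx methamphetamine stood first for Cdkn1a, Gadd45b, Ier2 and Ier5, risperidone for Gadd45g and mianserin for Btg2. Drugs were not tested against each other, and how often neighbours are separated over all genes was not counted.

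Over the 64 libraries, centred within each tissue, the members were related to each other to different degrees (Pearson r of log2 values, a description over libraries that share treatment groups and sample sets). The highest values between members were 0.646 for Cdkn1a and Gadd45g, 0.641 for Gadd45b and Ier5, 0.636 for Cdkn1a and Gadd45b, 0.624 for Gadd45b and Gadd45g and 0.619 for Ier2 and Ier5. Btg1 had values of -0.157 to 0.153 with the other 7. Among 14498 genes with a mean of at least 1 FPKM in both tissues, those most like Cdkn1a were Sik1 (r = 0.825), Irs2 (0.808) and Dusp1 (0.788). For Gadd45b they were Junb (0.755), Lancl1 (0.742) and D8Ertd738e (0.742), and for Gadd45g Junb (0.769), Pim3 (0.765) and Trak1 (0.755). For Btg2 they were Dusp1 (0.728), Nr4a1 (0.647) and Junb (0.639), for Ier2 Trib1 (0.687), Dusp1 (0.677) and Nr4a1 (0.637), and for Ier5 Arc (0.868), Midn (0.797) and Nptx2 (0.780). Gadd45a and Btg1 had no gene above 0.6, the first being Gm13080 (0.597) and Mettl10 (0.531).

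Genes that act with the members were followed as lists, whose counts stand beside the shares of all genes given above (NAc 29.9%, own-set 1.96%; PFCx 3.37%, own-set 1.46%). Of 24 other p53 target genes, 8 had a drug effect in the NAc (3 in the own-set comparison) and 6 had one in the PFCx (4). Some drug was called higher for 4 of them in each tissue, Ddit4, Plk2, Plk3 and Tnfrsf10b in the NAc and Ddit4, Plk2, Pmaip1 and Sesn1 in the PFCx, and Polk was called lower after risperidone in the NAc. For single drugs, 0.0479% to 0.872% of all genes were called higher in the NAc and 0.00272% to 0.35% in the PFCx. The share of all genes called higher after any of the 6 drugs was not counted. Tnfrsf10b, Sesn1 and Polk are named after their values were seen. Ddit4, an inhibitor of mTORC1 signalling, rose after risperidone in the NAc from 3.80 ± 0.772 to 9.38 ± 0.434 FPKM (log2 1.13, adjusted p = 1.35e-06 by limma, own-set 0.00013) and after mianserin in the PFCx from 2.23 ± 0.51 to 6.07 ± 0.81 (log2 1.14, adjusted p = 1.41e-06, own-set 1.88e-06). The kinase gene Plk2 rose after mianserin in the PFCx from 29.2 to 38.0 FPKM (log2 0.37, adjusted p = 0.000581, own-set 5.14e-05). In the same comparison Pmaip1, a promoter of apoptosis, rose from 0.416 to 0.853 FPKM (log2 0.39, adjusted p = 0.000647, own-set 0.00503). Plk3 rose after methamphetamine in the NAc from 0.635 to 1.22 FPKM (log2 0.43, adjusted p = 0.00963), but not in the own-set comparison (0.104).

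Of the cell cycle kinases, cyclins and their inhibitors, the targets and relatives of p21, 7 of 23 tested had a drug effect in the NAc by limma, beside 29.9% of all genes, and for the PFCx it was 0 of 24, beside 3.37%. In the own-set comparison it was 0 in both tissues, beside 1 and 3 at an unadjusted p under 0.05, and no single drug was called for any of them over all saline. An ordinary test called 7 and 0. Those with the lowest p in the NAc were Cdkn2d, Cdk4 and Rbl1 (own-set adjusted p over the 6 drugs = 0.789, 0.952 and 0.905 by limma).

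Of the stress kinases and the DNA repair and demethylation enzymes linked to Gadd45, 4 of 15 tested had a drug effect in the NAc (1 own-set, where 29.9% and 1.96% of all genes did). For the PFCx it was 0 of 16 by limma and by an ordinary test, where 3.37% of all genes were called, and 3 at an unadjusted p under 0.05. Tet2, which oxidises methylated cytosine, rose after mianserin in the NAc from 11.0 to 15.3 FPKM (log2 0.45, adjusted p = 0.000195 by limma, own-set 0.00633). Mapk14 fell after mianserin by 0.36 on the log2 scale (adjusted p = 0.0286, own-set 0.288).

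Of the BTG/TOB relatives and CCR4-NOT subunits, 5 of 16 had a drug effect in the NAc (1 own-set) and 3 of 17 in the PFCx (1 own-set). The shares of all genes were 29.9% and 3.37% (own-set 1.96% and 1.46%). Tob1, an antiproliferative relative of Btg1 and Btg2, fell after mianserin in both tissues. In the NAc it went from 5.88 ± 0.657 to 3.82 ± 0.208 FPKM (log2 -0.51, adjusted p = 2.13e-05 by limma, own-set 0.000117) and in the PFCx from 5.64 ± 0.465 to 4.25 ± 0.791 (log2 -0.35, adjusted p = 0.00544, own-set 0.00285). Btg2 rose after the same drug in the PFCx, as given above.

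Of the IER relatives and PP2A subunits, 5 of 10 had a drug effect in the NAc (1 own-set) and 1 of 10 in the PFCx (0 own-set, beside 4 at an unadjusted p under 0.05), where 29.9% and 3.37% of all genes were called (own-set 1.96% and 1.46%). Ier3, an early response gene that affects cell survival, rose after haloperidol in the NAc from 1.62 ± 0.291 to 3.28 ± 0.972 FPKM (log2 0.69, adjusted p = 0.00117 by limma, own-set 0.0197). Ier5l, the nearest relative of Ier5, rose after methamphetamine in the PFCx from 1.23 to 2.24 FPKM (log2 0.55, adjusted p = 0.00516, own-set 0.148), and fell by 0.43 on the log2 scale after ketamine in the NAc (adjusted p = 0.0278, own-set 0.229).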

How the data were processed

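The authors depleted RNA of ribosomal RNA, sequenced it on Ion Torrent chips, aligned the reads with TopHat2 2.0.1 followed by Tmap (mm10, GRCm38) and estimated the level of each Ensembl isoform with Cufflinks 2.2.1. They deposited these FPKM values, 1 table per library. The tables hold no read counts, and per the file headers each isoform also has a read coverage computed by Cufflinks. Depth was estimated from coverage divided by FPKM, for transcripts of 2000 bases or longer at 5 FPKM or more. How multiply mapped reads were treated is not given in the sources used here.

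FPKM of the isoforms of each gene symbol were summed. Genes with a mean of at least 0.1 FPKM in a tissue were tested (NAc 29240, PFCx 36807), and all 8 members were among them. Differences of log2(FPKM + 1) were tested with limma 3.58.1 in R 4.3.3 (moderated F over the 6 drugs, and each drug against saline), with Benjamini-Hochberg adjustment over all genes and a threshold of 0.05. Fold changes on this scale understate those of low genes, and ratios are of mean FPKM. The tissues were compared in a model of the 14 groups with no term for the animal. The steps were tested on simulated data. Figures used Python 3.11.15 and matplotlib 3.10.9. The members and lists were chosen with earlier results of these data known.

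Named genes are the 8 members, the genes most like each of them, and up to 3 genes per list and tissue with the lowest adjusted p of the F test. Motifs were searched on both strands in the 250 bases before each RefSeq start. The CArG box and the p53 half-site are given by name. Isoform types and overlapping genes came from GENCODE vM21.

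Replicate numbers come from the labels. Deviations from group means of same-numbered drug and own-set saline libraries had correlations above 0.1 in every pair for haloperidol, risperidone and methamphetamine in the NAc (0.128 to 0.396) and for haloperidol and methamphetamine in the PFCx (0.156 to 0.668). This was not so for risperidone in the PFCx (lowest 0.0316) or for any drug of set II (lowest -0.107). Alternatives were other saline controls, a replicate block, pseudocounts, filters, rescaling, limma settings, quantification status, the highest isoform and leaving out each library. The own-set comparison with a block within the set, and rescaling over genes with a mean of at least 1 FPKM, were added after seeing the data.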

Additional observations from a re-analysis of the deposited data

Results flagged for a closer look

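In 7 of the 112 groups of 4 libraries or 8 saline libraries, 1 library stood far from the others of its group, where chance gives about 1 in 20 (5.6 of 112). Gadd45a in the PFCx was at 2.79 FPKM in risperidone replicate 4, with the other 3 at 1.39 to 1.60. Mianserin replicate 1 in the PFCx had 2.59 FPKM of Gadd45a, with the others at 1.45 to 1.61, and 2.94 FPKM of Gadd45g, with the others at 2.15 to 2.24. For Gadd45g in the PFCx, methamphetamine replicate 3 had 2.59 FPKM (others 1.68 to 1.80) and ketamine replicate 1 had 3.03 FPKM (others 1.16 to 1.23). For Btg1 in the NAc, methamphetamine replicate 3 had 5.21 FPKM (others 3.52 to 3.78) and ketamine replicate 1 had the lowest value of its group, 3.93 FPKM (others 4.71 to 4.79). None of these 7 groups gave a called difference. Without methamphetamine replicate 3 of the NAc, the drug effect of Btg1 over the 6 drugs was called there (adjusted p = 0.0201 by limma).

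The drug effect differed between the NAc and the PFCx for Btg2 (limma interaction F, adjusted p = 0.00336) and Ier5 (adjusted p = 0.0142), beside 12.9% of all genes. Neither difference was called in the own-set comparison, where 0.752% of all genes were.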

How the results depend on the processing

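In the NAc the own-set comparison left 3 of 6 members, 5 of 10 drug differences, 2 of 6 isoforms and 574 of 8747 genes, and with the replicate number as a block within the set 3 members, 5 differences, 2 isoforms and 896 genes. In the PFCx it left 3 of 10 differences, 2 of 5 isoforms and 536 of 1240 genes, and with the block 4 differences, 2 isoforms and 955 genes. Of the 6 PFCx members it called 4, and with the block all 6. A replicate block over all groups kept all 20 differences and added 1, and the block within the set changed the own-set call of 1 single-drug difference, Cdkn1a after methamphetamine in the PFCx, and of the drug effects of Gadd45g and Ier2 in the PFCx. The members whose drug effect differed between the tissues went from 2 to 0 in the own-set comparison (limma, 3 at an unadjusted p under 0.05). The share of all genes went from 12.9% to 0.752%. With a pseudocount of 0.1 the PFCx had 6 differences and 3 isoforms.

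Genes called in the NAc were 4688 with a mean of at least 1 FPKM, 16955 with no filter and 5749 with the highest isoform only. Rescaling each library to the same 75th percentile of the values above 0 called 23625 genes and 6 differences in the NAc, and 7 members between the tissues. It moved the median of all genes in the NAc by -0.21 to -0.20 for the drugs of set I and by 0.19 to 0.24 for those of set II. It reversed 2 values, Btg1 after venlafaxine in the NAc (0.34, adjusted p = 0.0418 by limma) and Ier5 after haloperidol in the NAc (-5.39e-05). Cdkn1a and Btg2 after haloperidol, Cdkn1a after risperidone and Gadd45g after haloperidol in the NAc lost their calls under this setting and no other that kept all libraries (adjusted p = 0.0907, 0.0714, 0.169 and 0.306), and the last was also lost without haloperidol replicate 1. Rescaling over genes with a mean of at least 1 FPKM, where the median moved by -0.03 to 0.04, kept 19 of the 20 differences. The cause was not tested. Cdkn1a after mianserin in both tissues, and Gadd45b and Ier5 after methamphetamine in the PFCx, were called under every setting other than leaving out libraries.

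Leaving out one library at a time gave 5 to 7 members, 8 to 10 differences, 6 to 7 isoforms and 7445 to 9178 genes in the NAc, and 5 to 7, 6 to 10, 4 to 6 and 917 to 1629 in the PFCx. The members that differed between the tissues were 2 to 3 in drug effect and 6 to 6 in saline level. With saline set I alone or saline set II alone, 4 differed in saline level. Depth is known only as an estimate.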
